A study of Mus musculus with 26 samples.

Results

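The genes described here are 10 enteroendocrine genes of the 55487 genes counted in proximal small intestine (SI) of mice with an inducible gene knockout in intestinal epithelial cells (IECs). They were chosen by name, by a rule that uses no measured value but was drawn up with earlier results of these data known, as the lineage factor Neurog3, the granin Chga, the peptide hormones Cck, Gip, Sct, Sst, Ghrl, Gcg and Tac1, and the serotonin enzyme Tph1. The knockout mice (labelled tg) carried floxed alleles of the targeted gene and the Villin-creERT2 transgene, which is active in IECs, so cells outside the epithelium keep the gene. The control mice (labelled wt) were littermates with the same floxed alleles and without the transgene. All mice were on a C57BL/6N background, 8 to 12 weeks old and treated with 5 daily injections of tamoxifen, and they were killed 3 days (7 mice per genotype) or 7 days (6 mice per genotype) after the last one. As the controls also received tamoxifen, the genotype comparisons do not contain its effect, but they do contain that of the active recombinase. RNA came from a whole piece of tissue, in which fewer endocrine cells and less RNA per endocrine cell cannot be told apart.

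Enteroendocrine cells are scattered single cells of the gut epithelium that sense the contents of the lumen and release peptide hormones or serotonin from dense granules. They arise in the crypts from stem cell progeny in which the transcription factor Neurog3 is switched on for a short time under the control of Notch signalling, and further transcription factors then set which hormone a cell makes. Neurog3 thus marks new endocrine progenitors, while the hormones mark differentiated cells, some of which live longer than the surrounding enterocytes.

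The promoters of Neurog3 and Tph1 are shown because these are the genes with the steepest fall and the rise among the 10 at 7 days. The sequences are those of RefSeq on GRCm38.p6 and run from 250 bases before to 50 bases after the annotated start, with E-boxes (CANNTG, searched on both strands), the letters that basic helix-loop-helix factors such as Neurog3 bind, in capitals.
Neurog3, chr10:62132840-62133139, plus strand: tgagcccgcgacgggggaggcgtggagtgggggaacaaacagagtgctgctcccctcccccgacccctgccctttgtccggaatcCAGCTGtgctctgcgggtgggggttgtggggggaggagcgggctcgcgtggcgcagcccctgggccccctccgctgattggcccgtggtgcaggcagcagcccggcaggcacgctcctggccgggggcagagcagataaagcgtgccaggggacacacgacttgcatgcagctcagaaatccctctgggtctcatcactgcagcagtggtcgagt
Tph1, chr7:46672488-46672787, minus strand: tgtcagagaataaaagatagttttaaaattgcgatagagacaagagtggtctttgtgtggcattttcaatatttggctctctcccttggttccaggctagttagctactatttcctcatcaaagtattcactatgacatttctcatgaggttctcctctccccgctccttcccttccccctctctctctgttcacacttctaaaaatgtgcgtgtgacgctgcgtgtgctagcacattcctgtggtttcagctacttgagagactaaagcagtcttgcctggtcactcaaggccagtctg
The Neurog3 window held 1 E-box and the Tph1 window shown, that of the upstream start, held 0. The window of the second annotated start of Tph1 (chr7:46667328-46667627, minus strand) held 1, and 72.3% of 32851 mouse promoters of this length held at least 1. The N-box CACNAG, the site of the Notch target Hes1, was in none of these 3 windows and in 42.5% of all promoters. The element TGATGNAA, bound by ATF4 with a C/EBP partner, was in none of the 14 promoters that matched the 10 genes and in 3.97% of all promoters.

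Total counts per library ran from 3720168 to 6338016. In 4 libraries (knockout replicate 1 and control replicates 5 and 7 of 3 days, control replicate 2 of 7 days) the summed level of 11 stomach epithelium genes was over 1000 CPM (counts scaled to a common library total), and in 4 others that of 14 pancreatic acinar genes was over 10000 CPM. Without these 4 or all 8 libraries the calls for the 10 genes held, except for those of Gcg and Tac1 given with the comparisons of the days. Libraries of the 3′ ends of transcripts give 1 read per transcript, so CPM values are not divided by length. In control mice at 7 days the mean levels ran from 110 CPM for Cck and 107 CPM for Chga over 71.4 for Sst, 65.2 for Gip, 33.7 for Gcg, 33.3 for Sct, 32.7 for Ghrl, 13.3 for Tph1 and 7.52 for Tac1 to 3.41 CPM for Neurog3. Neighbours in this order overlapped in range except at 3 steps, from Chga to Sst, from Ghrl to Tph1 and from Tac1 to Neurog3.

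At 3 days after the last injection none of the 10 enteroendocrine genes differed between the genotypes in edgeR's quasi-likelihood test, which 1.45% of 20760 genes passed. Of the 10 genes, 0 had an adjusted p under 0.05 with edgeR or with DESeq2, and 2 (Sct and Tac1) had an unadjusted p under 0.05. At 7 days 5 of 9 tested genes passed the test, against 38.5% of 20259 genes. Ghrl, Gcg, Tac1 and Chga fell, against 19.4% of all genes that were lower, and Tph1 rose, against 19.1% that were higher. Neurog3 could not enter that test, because the filter leaves out genes at 0 in most samples of a genotype. The median log2 fold change of the 9 genes was -0.16 at 7 days and that of the 10 genes 0.27 at 3 days, beside -0.03 over all genes at both days.

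**Figure D1:**
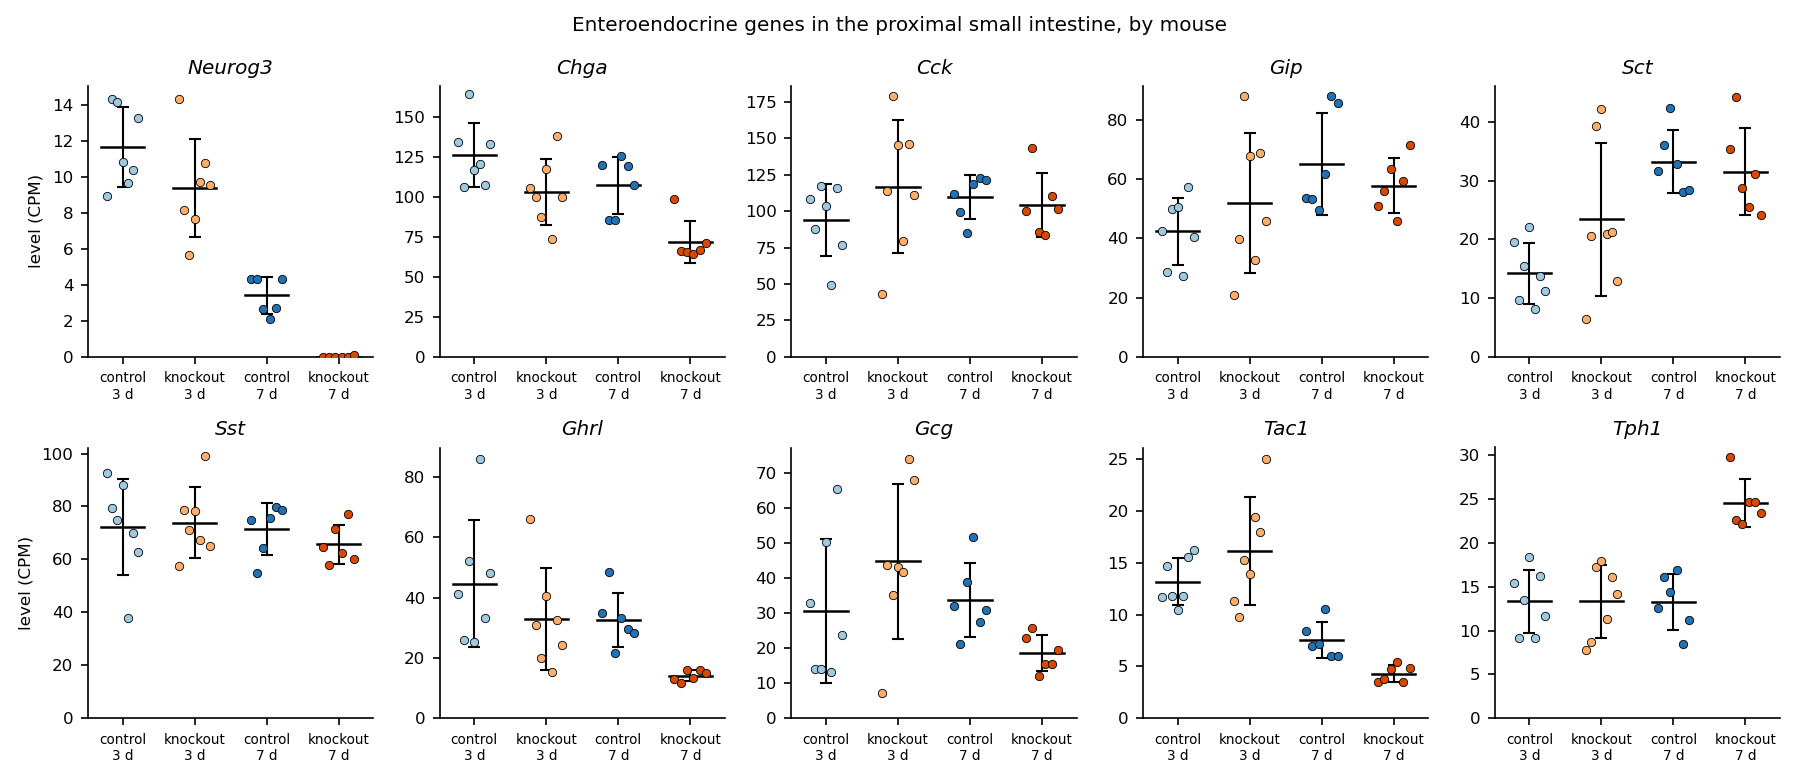
Level of each enteroendocrine gene in CPM (vertical axes, from 0) by group. Each point is 1 mouse, the horizontal line is the group mean and the bar 1 SD (n = 7 per genotype at 3 days, n = 6 at 7 days). Neurog3 lay at or near 0 in all 6 knockout mice of 7 days, Ghrl and Tac1 lay below and Tph1 above every control mouse of that day.

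Neurog3 transcripts were at the limit of detection in the knockout SI at 7 days. Neurog3 (ENSMUSG00000044312) is a single gene on chromosome 10 (62133090 to 62134763, plus strand, GRCm38) that encodes the basic helix-loop-helix factor without which no intestinal endocrine cells form. At 3 days the control mice had 8.94 to 14.3 CPM (median 10.8, n = 7) and the knockout mice 5.66 to 14.3 CPM (median 9.54, n = 7). These ranges overlapped over most of their width, and the log2 fold change was -0.22 ± 0.18 (SE, adjusted p = 0.66).

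At 7 days the control mice had 2.12 to 4.34 CPM (median 3.51, n = 6), whereas 5 of 6 knockout libraries had 0 counts and the sixth had 0.09 CPM. All control mice thus lay above all knockout mice. The 6 control libraries held 113.5 counts and the 6 knockout libraries 0.5 counts, so the level was at least 39.4-fold lower in the knockout when 3 counts over the group are taken as the floor. An exact two-sided permutation test of the mean CPM gave p = 0.00216, the smallest that its 924 permutations can give. Without the filter on low counts, edgeR gave an adjusted p of 9.2e-08.

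The reads of Neurog3 are few and shared in part with a neighbour. Its exons overlap those of Fam241b on the opposite strand, reads over both were split, and no strand option is stated, so 30.8% of the values of Neurog3 are fractions. Fam241b was measured at 11.4 ± 2.40 CPM in control and 13.6 ± 2.08 CPM in knockout mice of 7 days (SD, n = 6 each), and its ranges overlapped. The summed level of 8 intestinal stem cell markers was 561 to 736 CPM in control and 210 to 275 CPM in knockout mice of 7 days. At 3 days it was 1123 to 1332 CPM in control and 744 to 1125 CPM in knockout mice, ranges that met at their edges. Those of Neurog3 overlapped over most of their width at that day. The part of stem cells in the result for Neurog3 was not tested.

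Several factors that act beside and after Neurog3 were lower in the knockout at 7 days as well. Of 22 endocrine transcription factors, 19 could be tested, 8 fell and 1 (Hhex) rose, where 19.4% of all genes fell and 19.1% rose, and their median log2 fold change was -0.998 beside -0.03 over all genes. Isl1 and Nkx2-2 were among those that fell most. Isl1, a LIM homeodomain factor of several hormone lineages, went from 1.03 to 5.21 CPM in control mice to 0.329 to 0.758 CPM in knockout mice (log2 fold change -2.13 ± 0.45, adjusted p = 0.00084). Nkx2-2, a homeodomain factor needed for most hormone lineages, was at 0.631 to 3.08 CPM in control and 0 to 0.634 CPM in knockout mice (-2.06 ± 0.54, adjusted p = 0.0053). The groups of Isl1 did not overlap, while those of Nkx2-2 met at their edges. Of the 19 factors tested, 3 had groups without overlap, against 22.6% of all genes tested. Hhex, a factor of somatostatin cells that is also present elsewhere, rose from 1.95 to 3.27 CPM in control mice to 2.63 to 5.596 CPM (0.68 ± 0.24, adjusted p = 0.033).

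Neurod1, a direct target of Neurog3, was at 9.24 to 14.7 CPM in control and 8.53 to 14.7 CPM in knockout mice of 7 days, with a log2 fold change of -0.07 ± 0.15 (adjusted p = 0.75). It was singled out after its values were seen, as were Neurod2 and Pax4, which the filter left out. Neurod2 held 19 counts over the 6 control libraries and 0 over the 6 knockout libraries, at least 6.59-fold lower against the same floor. Pax4, a factor of serotonin and other lineages, held 21 and 1 counts, with no overlap between the groups. At 3 days 0 of the 22 factors passed the test with edgeR or DESeq2 and 1 (Mnx1) had an unadjusted p under 0.05, and their median log2 fold change was -0.11.

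Genes of secretory fate and Notch signalling fell more often than they rose at 7 days. Of 14 such genes, 13 were tested, 7 fell and 1 rose, where 19.4% of all genes fell and 19.1% rose. Their median log2 fold change was -0.39 beside -0.03 over all genes. Hes6, a Hes family member found in differentiating cells, fell from 34.4 to 51.9 CPM in control mice to 12.4 to 18.2 CPM in knockout mice (-1.36 ± 0.13, adjusted p = 9.3e-08). Gfi1, a repressor that keeps secretory progenitors from the endocrine path, fell from 2.54 to 4.62 to 1.15 to 2.10 CPM (-1.10 ± 0.26, adjusted p = 0.0027). Tubb3 came next among the genes of this list that fell (-0.64 ± 0.22, adjusted p = 0.029). The receptor gene Notch2 rose from 3.85 to 9.78 to 10.04 to 17.1 CPM (0.86 ± 0.19, adjusted p = 0.0016). Hes6, Gfi1 and Notch2 did not overlap between genotypes, whereas Tubb3 did. Of the 13 genes tested, 5 had groups without overlap, against 22.6% of all genes tested. Atoh1, which all secretory cells pass through, had 5.01 to 12.0 CPM in control and 4.53 to 10.8 CPM in knockout mice (0.02 ± 0.24, adjusted p = 0.97), and was named after its values were seen. Of the 14 genes, 0 passed at 3 days with edgeR, 4 had an unadjusted p under 0.05, and DESeq2 called 1, Hes1.

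Chga encodes chromogranin A, the core protein of the dense granules in which hormones are stored. At 7 days it was at 85.5 to 125 CPM in control mice (median 114) and at 64.1 to 98.6 CPM in knockout mice (median 66.5). The knockout mice lay below the controls except replicate 1, whose 98.6 CPM is within the control range. The log2 fold change was -0.56 ± 0.13 (SE, adjusted p = 0.0025), and it ran from -0.70 to -0.50 as each mouse was left out. At 3 days the values were 107 to 164 CPM in control and 73.8 to 138 CPM in knockout mice (-0.18 ± 0.15, adjusted p = 0.64).

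Of 24 further genes of granules and prohormone processing, all were tested at 7 days, 6 fell and 1 rose, with a median log2 fold change of -0.29 beside -0.03 over all genes. Of all genes, 38.5% passed, a larger share than in this list, and 19.4% fell, a smaller share than in this list. Scgn, the calcium sensor secretagogin, fell from 4.40 to 9.04 CPM in control mice to 0.906 to 3.95 CPM (-1.44 ± 0.29, adjusted p = 0.00057), with no overlap. In this list 2 of 24 genes had groups without overlap, against 22.6% of all genes tested. Pcsk2, a convertase that cuts prohormones, had -1.06 ± 0.28 (adjusted p = 0.0058) and Pcsk1n, which encodes an inhibitor of the related convertase Pcsk1, had -0.97 ± 0.32 (adjusted p = 0.022). Snap25, a part of the vesicle fusion machinery that neurons also use, rose (0.68 ± 0.23, adjusted p = 0.024). Chgb, the second major granin, was at 183 to 251 CPM in control and 202 to 271 CPM in knockout mice (0.13 ± 0.10, adjusted p = 0.34), and was named after its values were seen. In this list 0 genes passed at 3 days with edgeR or DESeq2, and 0 had an unadjusted p under 0.05.

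The hormone genes Cck, Gip, Sct and Sst did not pass the test at either day. Cck encodes cholecystokinin, which is released on fat and protein and acts on gallbladder and pancreas. It was at 84.8 to 123 CPM in control mice of 7 days (median 115) and at 83.9 to 143 CPM in knockout mice (median 101). The groups overlapped, and the 95% confidence interval of the log2 fold change of -0.06 was -0.32 to 0.19 (adjusted p = 0.73).

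Gip encodes the glucose-dependent insulinotropic peptide of the K cells. At 7 days it was at 49.4 to 88.0 CPM in control (median 57.5) and at 45.8 to 71.5 CPM in knockout mice (median 57.7), with a log2 fold change of -0.16 (-0.48 to 0.16, adjusted p = 0.45). Sct, the gene of secretin, was at 28.1 to 42.4 CPM in control (median 32.3) and at 24.1 to 44.2 CPM in knockout mice (median 29.96), with a change of -0.07 (-0.38 to 0.25, adjusted p = 0.77). Sst, the gene of the inhibitory hormone somatostatin, was at 54.7 to 79.9 CPM in control (median 75.4) and at 58.0 to 77.2 CPM in knockout mice (median 63.5), with a change of -0.11 (-0.34 to 0.12, adjusted p = 0.47). In all 3 genes the ranges of the genotypes overlapped. The 10 pan-epithelial genes summed to 5749 to 6876 CPM in control and 4680 to 5260 CPM in knockout mice of this day. With libraries scaled to these genes, which moves the median of all genes at 7 days from -0.03 to 0.13, the sign of Cck, Sct and Sst turned (0.10, 0.12 and 0.05) and none of the 3 passed the test.

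At 3 days the ranges of these hormones in the knockout mice were wider than at 7 days. Cck was at 49.2 to 117 CPM in control (median 103) and 42.9 to 179 CPM in knockout mice (median 114). Sct was at 8.06 to 22.2 CPM in control (median 13.7) and 6.52 to 42.3 CPM in knockout mice (median 20.9), a log2 fold change of 0.84 with an interval of 0.11 to 1.57 and an adjusted p of 0.28. For Gip the change was 0.41 (-0.15 to 0.98) and for Sst 0.15 (-0.21 to 0.52). In Cck, Gip, Sct and Sst the knockout value at the lower end of the range was that of replicate 1, the library high in stomach genes.

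Ghrl, the gene of the appetite hormone ghrelin, which is made mostly in the stomach and by cells of the upper SI, showed the largest fall of the hormones. At 7 days it was at 21.7 to 48.4 CPM in control mice (median 31.4) and at 11.7 to 15.96 CPM in knockout mice (median 14.2). Every knockout mouse lay below every control mouse. Of the 9 genes tested, 3 (Ghrl, Tac1 and Tph1) had groups without overlap at this day, against 22.6% of all genes tested. The level was 2.27-fold lower (log2 fold change -1.18 ± 0.15, adjusted p = 3.6e-06). At 3 days the values were 25.3 to 86.0 CPM in control and 15.4 to 66.0 CPM in knockout mice, and the change of -0.35 ± 0.32 did not pass the test (adjusted p = 0.70).

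The level of Ghrl moved with that of the 11 stomach epithelium genes, and the highest Ghrl value of 3 groups (86.0, 66.0 and 48.4 CPM) was in a library with a high stomach level. At 7 days the summed stomach level was 8.21 to 39850 CPM in control and 3.03 to 84.6 CPM in knockout mice, with Atp4b at 0 in all libraries and Gkn2, Muc5ac and Cldn18 at 0 in the knockout libraries. Of the 11 genes, 4 were tested at 7 days. Muc6, Tff2 and Pgc, which glands of the proximal duodenum also express, fell with edgeR, where 19.4% of all genes fell. DESeq2 called 0 genes of this list. The control library with the lowest stomach level, 8.21 CPM, had 21.7 CPM of Ghrl, above all 6 knockout libraries, and the knockout library with 84.6 CPM had 13.4 CPM of Ghrl. Without the 4 libraries high in stomach genes the log2 fold change was -1.08 (adjusted p = 1.4e-06), and with the stomach and pancreatic scores as covariates it was -1.004 (adjusted p = 4.9e-06). These are single libraries and refits, and the part of stomach tissue in the lower level of Ghrl was not tested. The exons of Ghrl overlap Gm26982 and Gm44033 on the opposite strand, which had at most 3.88 and 1.23 CPM in a library.

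**Figure D2:**
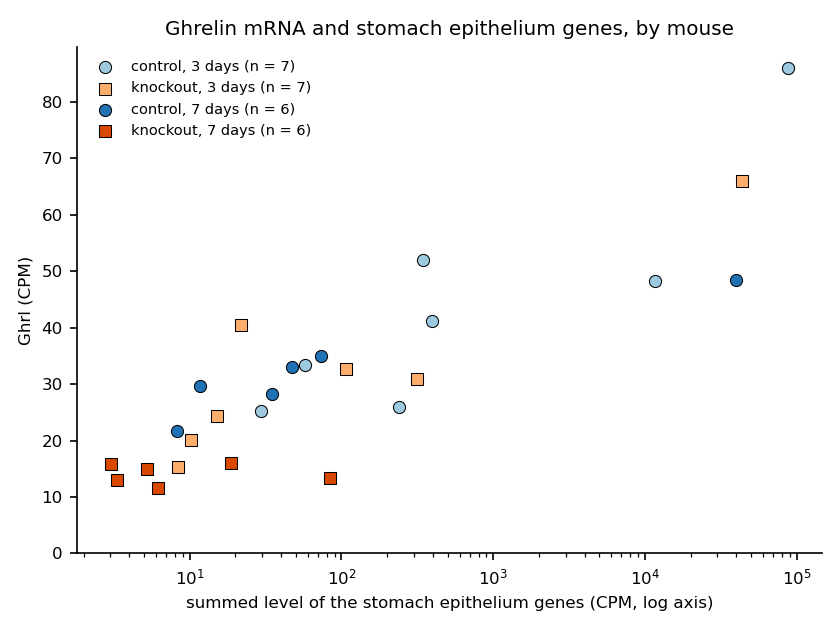
Level of Ghrl in CPM (vertical axis) against the summed level of 11 stomach epithelium genes in CPM (horizontal log axis), 1 point per mouse, with the groups by colour and shape. The 6 knockout mice of 7 days lie between 11.7 and 15.96 CPM of Ghrl at stomach levels of 3.03 to 84.6 CPM, below the control mice of that day.

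Gcg encodes proglucagon, from which L cells cut the glucagon-like peptides. At 7 days it was at 21.1 to 51.6 CPM in control mice (median 31.5) and at 12.1 to 25.8 CPM in knockout mice (median 17.5). The ranges met between 21.1 and 25.8 CPM, and the level was 1.80-fold lower (log2 fold change -0.85 ± 0.20, adjusted p = 0.0026). With all 26 libraries in 1 fit the log2 fold change was -0.82 and the adjusted p 0.11.

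At 3 days Gcg was at 13.2 to 65.5 CPM in control (median 23.9) and at 7.15 to 73.9 CPM in knockout mice (median 43.2), with a log2 fold change of 0.67 ± 0.42 (adjusted p = 0.54). The lowest value, 7.15 CPM, was again that of knockout replicate 1. Pancreatic islets also express Gcg. The islet genes Ins1 and Ins2, with 4 further islet markers, summed to 543 CPM in knockout replicate 2 of 3 days, where Gcg was at 43.8 CPM, and to at most 9.99 CPM in the other libraries, and at 7 days Ppy, G6pc2 and Slc30a8 were at 0 in every library.

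Tac1 encodes the precursor of the tachykinin substance P, which serotonin cells of the gut and enteric neurons make. At 7 days it was at 5.97 to 10.6 CPM in control mice (median 7.07) and at 3.46 to 5.43 CPM in knockout mice (median 4.27). No knockout mouse reached the control range, and the level was 1.74-fold lower (log2 fold change -0.80 ± 0.19, adjusted p = 0.0027). The 14 genes of enteric neurons and glia summed to 47.7 to 92.3 CPM in control and 59.5 to 76.1 CPM in knockout mice of 7 days, ranges that overlap. Of these 14 genes, Vip and Chat fell and S100b rose, where 19.4% of all genes fell and 19.1% rose. The part of enteric neurons in the result for Tac1 was not tested. At 3 days Tac1 was at 10.5 to 16.2 CPM in control and 9.80 to 25.0 CPM in knockout mice (0.38 ± 0.18, adjusted p = 0.35).

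Tph1 was the one gene of the 10 that rose at 7 days. It encodes tryptophan hydroxylase 1, the enzyme that sets the rate of serotonin synthesis in enterochromaffin cells, and lies on chromosome 7 (46644641 to 46672537, minus strand). At 7 days it was at 8.47 to 16.9 CPM in control mice (median 13.4) and at 22.2 to 29.8 CPM in knockout mice (median 24.0). All knockout mice lay above all controls, and the level was 1.87-fold higher (log2 fold change 0.91 ± 0.15, adjusted p = 6.3e-05). At 3 days the ranges of the genotypes overlapped, with 9.11 to 18.4 CPM in control and 7.78 to 17.9 CPM in knockout mice (0.10, interval -0.35 to 0.56, adjusted p = 0.89). Mast cells can express Tph1 as well. The 9 mast cell markers summed to 10.8 to 16.7 CPM in control and 8.34 to 14.1 CPM in knockout mice of 7 days, with Mcpt4 and Cma1 at 0 in the knockout libraries. Of the 9 markers, 5 were tested, and Mcpt1, Mcpt2 and Kit fell, where 19.4% of all genes fell and 19.1% rose. Hdc, which other cells of the mucosa also express, rose from 1.35 to 3.47 CPM to 2.65 to 5.22 CPM (0.83 ± 0.25, adjusted p = 0.013). The part of mast cells in the result for Tph1 was not tested.

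The other genes of serotonin handling did not share one direction at 7 days. Of 8 genes, 7 were tested, 2 rose and 3 fell, where 38.5% of all genes passed, and Tph2, the neuronal counterpart of Tph1, was at 0 in all libraries. Gch1, which makes the cofactor that Tph1 needs, rose from 8.08 to 19.8 CPM in control mice to 53.3 to 71.5 CPM in knockout mice (log2 fold change 2.22 ± 0.18, adjusted p = 1.4e-08). Maoa, one of the enzymes that break serotonin down, rose from 251 to 355 to 545 to 672 CPM (0.98 ± 0.12, adjusted p = 2.2e-06). Its sister gene Maob fell from 97.1 to 212 CPM to 8.64 to 13.99 CPM (-3.81 ± 0.21, adjusted p = 7.8e-11).

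Slc6a4, the serotonin transporter, which enterocytes use to take serotonin up, fell from 29.4 to 48.1 CPM to 8.46 to 14.4 CPM (-1.74 ± 0.17, adjusted p = 1.6e-07). Ddc, the decarboxylase of the second step, fell from 126 to 287 CPM to 107 to 142 CPM (-0.84 ± 0.15, adjusted p = 0.00016). Except for Ddc, these genes did not overlap between genotypes. They made 4 of the 7 tested genes of this list, against 22.6% of all genes tested. Gch1, Maoa, Maob, Slc6a4 and Ddc are not particular to endocrine cells. The vesicular transporter Slc18a1, which marks enterochromaffin cells, was at 2.82 to 10.9 CPM in control and 5.61 to 8.64 CPM in knockout mice (-0.22 ± 0.25, adjusted p = 0.53), and was named after its values were seen. At 3 days 0 genes of this list passed with edgeR or DESeq2, and 2 (Gch1 and Maoa) had an unadjusted p under 0.05.

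**Figure D3:**
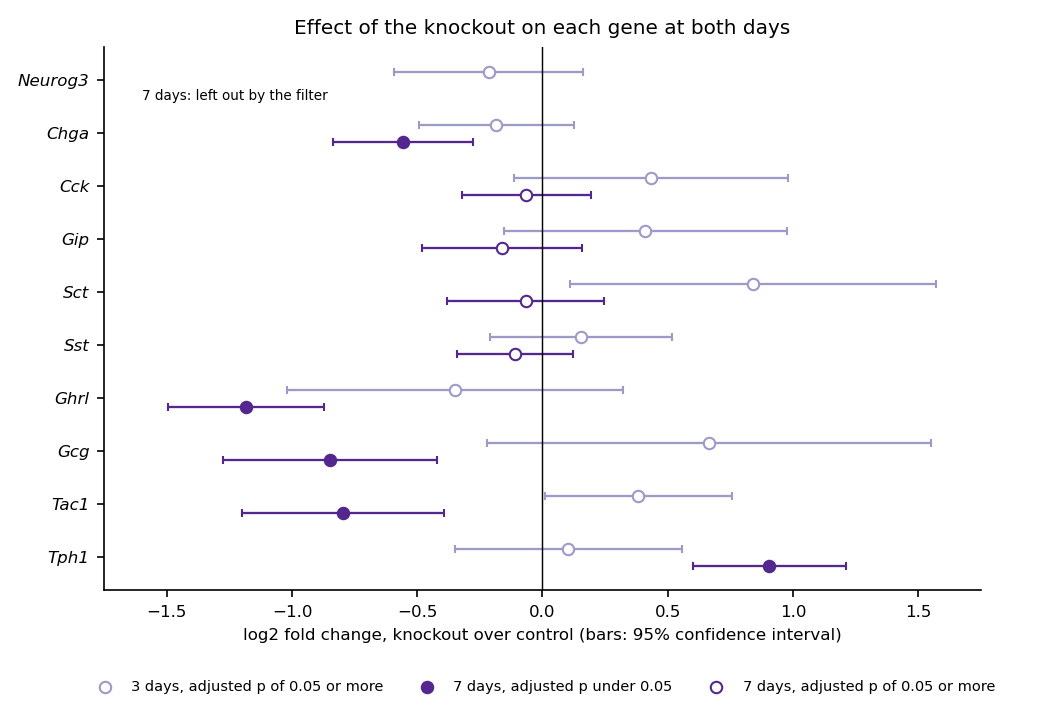
Log2 fold change of knockout over control (horizontal axis) for each gene at 3 days (light) and 7 days (dark), with 95% confidence intervals. Filled points passed an adjusted p of 0.05: Chga, Ghrl, Gcg and Tac1 to the left and Tph1 to the right, all at 7 days, and Neurog3 has no value at 7 days because the filter left it out.

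The effect of the knockout differed between the days for Tac1 and Tph1. The interaction test, in a fit of all 26 libraries, was passed by 17% of 21415 genes. For Tac1 the effect at 7 days minus that at 3 days was -1.14 ± 0.26 on the log2 scale (adjusted p = 0.0019). For Tph1 it was 0.84 ± 0.27 (adjusted p = 0.029). Neurog3 was called too, but passed the filter of this fit only through the mice of 3 days, where its level was higher. Its call (adjusted p = 1.9e-08, and 7.4e-09 without the filter) is thus not set against that share. No size is given for Neurog3 because the knockout group of 7 days is at the floor. Tac1 lost the call when libraries were scaled to the pan-epithelial genes (-0.90, adjusted p = 0.15). Tph1 lost it in 6 of 26 fits that left out 1 mouse, namely knockout replicate 5 and control replicate 4 of 3 days and knockout replicates 1 and 4 and control replicates 5 and 6 of 7 days, with values of 0.73 to 0.83 and adjusted p of up to 0.074.

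Gcg missed the threshold (-1.47 ± 0.52, adjusted p = 0.051) and passed it without the 4 libraries high in stomach genes (-1.58, adjusted p = 0.0084). It passed as well with DESeq2 (adjusted p = 0.022), with the size factors of DESeq2 (0.044), with another filter (0.042), with tissue scores as covariates (0.0070) and without all 8 libraries (0.040), but not with the replicate block (0.067), pan-epithelial scaling (0.11) or no filter (0.054). It also passed when any one of 5 mice was left out (knockout replicate 1 and control replicates 4 and 6 of 3 days, knockout replicate 2 and control replicate 2 of 7 days), with values of -1.77 to -1.58. The difference for Ghrl was -0.80 ± 0.40 (adjusted p = 0.18). It passed the threshold with tissue scores as covariates (-0.80, adjusted p = 0.029) and without control replicate 5 of 3 days (-1.07, adjusted p = 0.033). That for Sct was -0.87 ± 0.41 (adjusted p = 0.16), and it passed without knockout replicate 1 of 3 days (-1.04, adjusted p = 0.032). For Chga (-0.33 ± 0.21), Cck (-0.46 ± 0.31), Gip (-0.54 ± 0.34) and Sst (-0.23 ± 0.21) the difference between the days was not detected.

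Between 3 and 7 days the control mice themselves differed in 4 of the 10 genes, where 35.6% of all genes did. Neurog3 fell from 8.94 to 14.3 CPM to 2.12 to 4.34 CPM (log2 fold change -1.44 ± 0.21, adjusted p = 3.6e-05), and these groups did not overlap. Sct rose from 8.06 to 22.2 CPM to 28.1 to 42.4 CPM (1.53 ± 0.29, adjusted p = 0.00023), also without overlap. Gip rose (0.94 ± 0.24, adjusted p = 0.0032) and Tac1 fell (-0.50 ± 0.18, adjusted p = 0.029). The call of Tac1 was lost in 7 of 13 fits that left out 1 control mouse (replicates 2, 6 and 7 of 3 days and replicates 2, 3, 5 and 6 of 7 days; adjusted p of up to 0.11) and without the 4 libraries high in stomach genes (adjusted p = 0.10). Cck missed the threshold (0.54 ± 0.22, adjusted p = 0.059) and passed it without control replicate 3 of 3 days or of 7 days (0.60 and 0.63). It passed as well with DESeq2 (adjusted p = 0.041), with the size factors of DESeq2 (0.0496) and with only the control mice in the fit (0.0090). With pan-epithelial scaling Cck was lower at 7 days (-0.55, adjusted p = 0.0074).

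The makeup of the pieces differed between the days in the control mice, which were different animals at each day. Pan-epithelial genes summed to 2459 to 4391 CPM at 3 days and 5749 to 6876 CPM at 7 days, and enteric neuron and glia genes to 127 to 292 and 47.7 to 92.3 CPM. Scaling to the pan-epithelial genes moved the median of all genes in this comparison from -0.11 to -1.23, turned the value of Gip to -0.13 (adjusted p = 0.48) and left Sct higher at 7 days (0.47, adjusted p = 0.048). Day, age and any separate handling of the 2 sets of mice cannot be told apart here. In the knockout mice, Tph1 rose between the days (1.14 ± 0.19, adjusted p = 2.3e-05). Tac1 (-1.63 ± 0.19, adjusted p = 7.2e-08), Ghrl (-0.96 ± 0.29, adjusted p = 0.0093) and Gcg (-1.01 ± 0.37, adjusted p = 0.033) fell, where 38.1% of all genes differed. In CPM, which carries no TMM factors, Neurog3 fell at least 108-fold against the floor of 3 counts. It was tested only through its level at 3 days and is not set against that share. The call of Gcg was lost in 6 of 13 fits that left out 1 knockout mouse (replicates 6 and 7 of 3 days and 3 to 6 of 7 days, adjusted p of up to 0.088). Sct missed the threshold (0.66 ± 0.29) and passed it without knockout replicate 3 or 4 of 3 days (0.82 and 0.89).

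**Figure D4:**
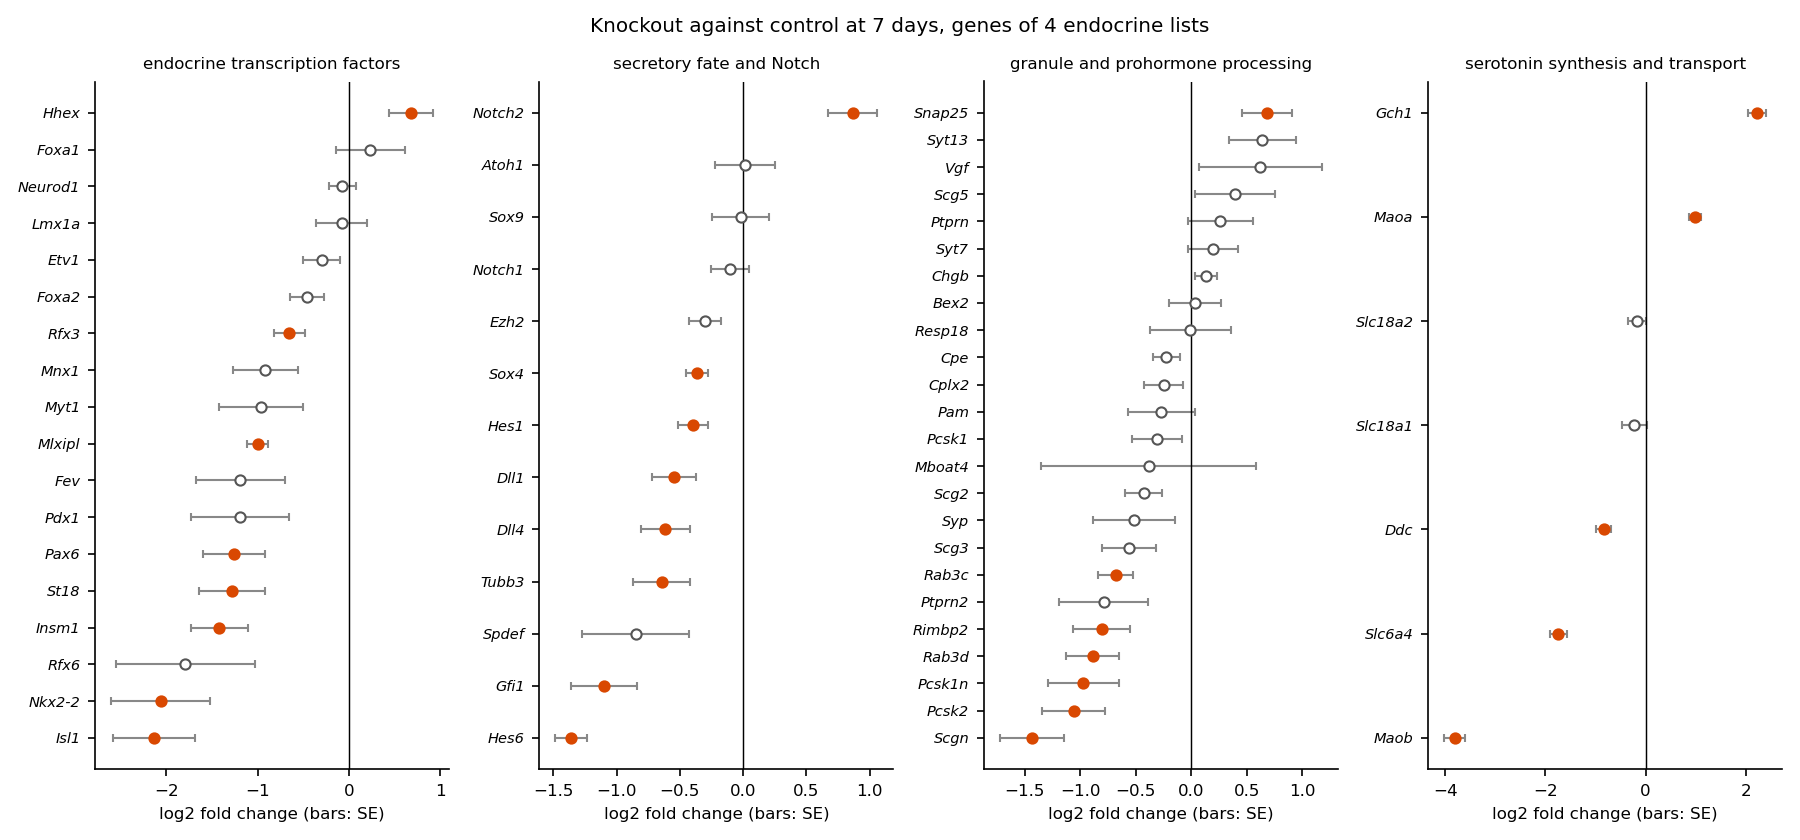
Log2 fold change of knockout over control at 7 days (horizontal axes, bars are 1 SE) for tested genes of 4 endocrine lists, without 1 transcription factor that is not reported here. Filled points passed an adjusted p of 0.05: of the transcription factors, Hhex lies to the right of 0 and the other filled points to the left, and of the 7 serotonin genes 2 rose and 3 fell.

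Among 10 further gut hormones, 8 were tested and 0 passed the edgeR test at 7 days, where 38.5% of all genes passed. With DESeq2 0 passed as well, and with edgeR none had an unadjusted p under 0.05. With either tool 0 passed at 3 days, and 3 (Iapp, Nts and Pyy) had an unadjusted p under 0.05. Nts, the neurotensin gene, was at 0 to 12.8 CPM in control and 3.95 to 15.6 CPM in knockout mice of 7 days (1.41 ± 0.73, adjusted p = 0.14). The distal hormone gene Pyy was at 0 to 4.99 and 0 to 4.35 CPM. Both were named after their values were seen. Of 21 genes by which endocrine cells sense nutrients, 17 were tested at 7 days and 3 fell, where 19.4% of all genes fell, namely Slc15a1 (-3.03 ± 0.27, adjusted p = 6.9e-08), Slc5a1 (-2.11 ± 0.21, adjusted p = 2.4e-07) and Adra2a (-2.01 ± 0.24, adjusted p = 1.8e-06). Slc15a1 and Slc5a1, the peptide and glucose transporters, are mostly transcripts of enterocytes, whose 10 proximal markers summed to 14438 to 27940 CPM in control and 3088 to 4503 CPM in knockout mice.

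Of 20 receptors for these hormones, 14 were tested at 7 days, and Gcgr rose and Glp1r fell, where 38.5% of all genes passed. The glucagon receptor Gcgr was at 0.342 to 0.508 CPM in control and 0.569 to 1.48 CPM in knockout mice (1.18 ± 0.39, adjusted p = 0.022). Glp1r, the receptor of the glucagon-like peptide that Gcg encodes, was at 5.19 to 720 CPM in control mice (median 6.82) and at 0.793 to 5.07 CPM in knockout mice (median 2.13, adjusted p = 0.0028), and its highest control value was that of replicate 2, the library high in stomach genes. Over both days, the summed level of the 20 receptors was 464 to 3784 CPM in the 4 libraries high in stomach genes. It was at most 110 CPM in every other library. The part of stomach tissue or of duodenal glands in these levels was not tested. The groups of Gcgr and Glp1r were apart at 7 days, as were those of 22.6% of all genes tested, but DESeq2 called 0 genes of this list at that day. Of the nutrient and receptor lists, 0 genes passed at 3 days with either tool, and 1 (Adra2a) had an unadjusted p under 0.05.

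Among mice of 1 group the hormone genes varied together in part. Over the 26 libraries, with each value taken as the deviation of log2 CPM from its group mean, Pearson's r was 0.85 between Cck and Gip, 0.78 between Cck and Sct and 0.75 between Sct and Tph1. Ghrl ran against Gcg (-0.56) and Cck (-0.42), and Neurog3 against Sct (-0.50) and Gcg (-0.50). For Tac1 the values with the other genes ran from -0.31 to 0.34 and for Chga from -0.18 to 0.42. The points share library, depth and tissue makeup. Cck, Gip and Sct had r of 0.75, 0.81 and 0.83 with the score of the pan-epithelial genes. With the score of the stomach genes Sst had -0.72 and Ghrl 0.74. Neurog3 had 0.50 with the score of enteric neuron and glia genes, 0.43 with that of stem cell genes and -0.43 with that of pan-epithelial genes. These are descriptions of 26 libraries and were not tested.

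**Figure D5:**
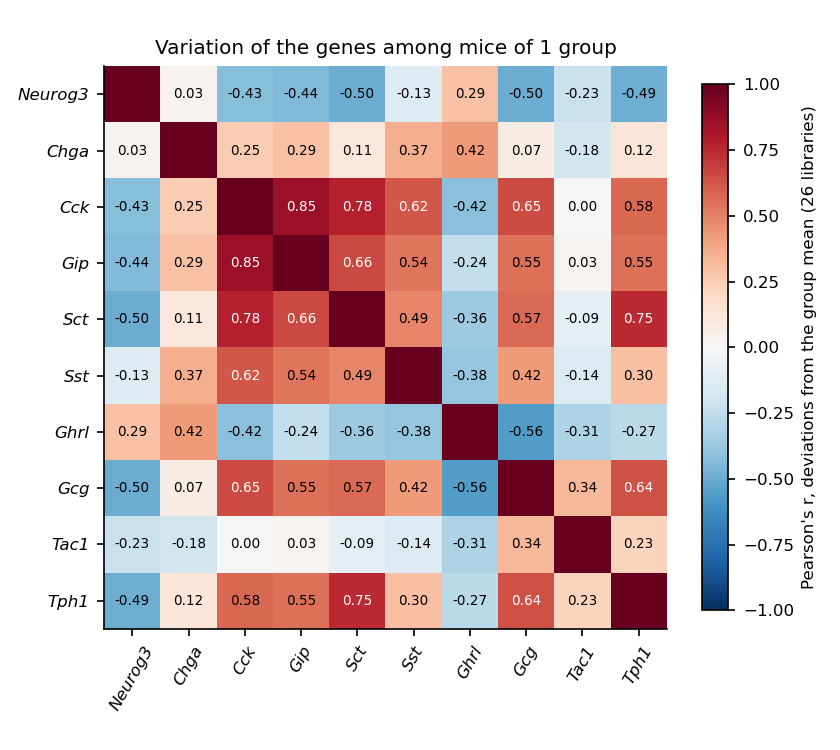
Pearson's r between pairs of the 10 genes over 26 libraries (colour and printed value), from deviations of log2 CPM from the group means. Cck, Gip, Sct, Sst, Gcg and Tph1 have positive values with each other, from 0.30 to 0.85, while Ghrl is negative with all 6.

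By the same measure over 26 libraries, and leaving aside genes whose mean count was under 10, the 3 genes most like Cck were Dot1l (0.91), Cycs (0.91) and Tomm70a (0.91). Those most like Gip were Abhd11os (0.91), Chmp6 (0.90) and Atpif1 (0.89), and those most like Sct were Nlrp9b (0.91), Gpd2 (0.90) and Pklr (0.90). Sst ran closest to Slc30a2 (0.85), Pdp2 (0.85) and Lypla1 (0.84), and Gcg to Rcc1 (0.87), Sun1 (0.87) and Emg1 (0.85). Ghrl ran closest to Sort1 (0.90), Tpd52l1 (0.90) and Ctsh (0.89), and Chga to Pdxk (0.82), Nudt13 (0.75) and Wdr46 (0.71). Tph1 was nearest to Alas1 (0.79), Pcyt2 (0.78) and Myl12b (0.77), Tac1 to Klf10 (0.65), Tmem170b (0.64) and Slamf9 (0.63), and Neurog3 to Zfp952 (0.75), Fam241b (0.72) and Gm7887 (0.71). Fam241b shares exon positions with Neurog3.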

How the data were processed

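Total RNA from proximal small intestine of 26 mice, 1 library per mouse, was sequenced from transcript 3′ ends. Per the labels and methods, the authors trimmed reads with Cutadapt 2.10, aligned them with Subread to GRCm38 and counted them per gene with featureCounts 2.0.1, sharing reads over overlapping genes, so the deposited values are estimated counts that can be fractions (95.0% were whole). No strand option is given in the sources used here. The deposited CPM table, which the authors made, equals these counts over each library's total within 1e-06, so CPM carries no correction for composition. The 92 spike-in rows held 0 counts, and 0 pairs of libraries were identical.

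Counts were rounded and tested with edgeR 4.0.16 in R 4.3.3 (TMM factors, quasi-likelihood test, Benjamini-Hochberg adjustment over all tested genes, threshold 0.05), although the test had been written down for whole counts. A gene was tested within a day only if, in each genotype of that day, no more than 0.5 of the samples had 0 counts. In the fit of all 26 libraries it was tested if it met this rule at either day. Genotypes were compared within each day in a fit of that day. The difference between days and the changes between days came from 1 fit of all 26 libraries. Intervals are 95% confidence intervals, ± after a log2 fold change is the SE, and a floor is 3 counts over a group, covering counting error only. Fold bounds against the floor use library totals without TMM factors. CPM values and fitted changes between days differ in part because TMM factors averaged 1.13 and 1.06 at 3 days and 0.915 and 0.887 at 7 days (control and knockout).

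The members, named by a rule that uses no measured value, and all gene lists were chosen with earlier results of these data known. From each list all genes that passed at 3 days, and at 7 days up to 3 with the largest rise and 3 with the largest fall, are named. The targeted gene and some list genes are not reported here by name. For list genes, 241 of 242 symbols were found. Alternatives were DESeq2 1.42.0, other size factors and filters, other sample sets, a replicate block, tissue scores as covariates, scaling to pan-epithelial genes and leaving out mice. Promoters came from RefSeq. The procedure was tested on simulated data.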

Additional observations from a re-analysis of the deposited data

Results flagged for a closer look

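The knockout effect differed between the days in the interaction test of edgeR for Tac1, by -1.14 on the log2 scale, and for Tph1, by 0.84. For Neurog3 the adjusted p was 1.94e-08, but the gene passed the filter of that fit only through the mice of 3 days, where its level was higher. At 7 days all 6 knockout mice lay below the controls in Tac1 and Neurog3 and above them in Tph1. Of all genes tested at that day, 22.6% had groups without overlap.

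Knockout replicate 1 of 7 days stood apart from the other 5 mice of its group in 2 genes. It had 29.8 CPM of Tph1 and 98.6 CPM of Chga. In 39 groups tested for such a gap, 2 were found, and 1.95 are reached by chance.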

How the results depend on the processing

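At 3 days 0 of the 10 genes passed under any alternative. At 7 days 5 passed in each fit that left out 1 mouse, and the calls of Ghrl, Tac1, Chga and Tph1 held under every alternative run, while that of Gcg was lost with all 26 libraries in 1 fit. The number of genes, Neurog3 included, whose effect differed between the days was 5 with tissue scores as covariates and ran from 2 to 5 as each mouse was left out. The number that changed between days in control mice was 8 with pan-epithelial scaling.

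Values that changed sign were as follows, and the cause was not tested. With pan-epithelial scaling the genotype change was 0.10 (Cck), 0.12 (Sct) and 0.054 (Sst) at 7 days and -0.039 (Tph1) at 3 days, the difference between the days was 0.044 for Sst, the change in control mice was -0.55 (Cck), -1.03 (Chga), -0.55 (Gcg), -0.13 (Gip), -0.81 (Sst) and -0.77 (Tph1), and that in knockout mice was -0.64 (Cck), -0.33 (Gip), -0.00077 (Sct) and -0.76 (Sst). With tissue scores as covariates they were 0.088 (Ghrl) and -0.17 (Tph1) at 3 days, 0.12 (Ghrl) in control mice, and -0.019 (Cck) and -0.0056 (Sst) in knockout mice. Leaving out libraries was an alternative chosen after seeing the data. Without the 4 libraries high in stomach genes they were -0.073 (Cck, knockout mice) and 0.069 (Ghrl, control mice). Without all 8 libraries high in stomach or pancreatic genes they were -0.013 (Sst) at 3 days, 0.0012 (Sct) at 7 days, -0.11 (Gcg), 0.18 (Ghrl) and -0.046 (Tph1) in control mice, and -0.020 (Cck) in knockout mice. As each mouse was left out, Cck ran from -0.17 to 0.0045 and Sct from -0.18 to 0.060 at 7 days, Tph1 from -0.0037 to 0.21 at 3 days, Cck from -0.073 to 0.20 in knockout mice and Ghrl from -0.29 to 0.11 in control mice.

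Over all genes, the count at 3 days was 302 and became 786 with DESeq2, 769 with all 26 libraries in 1 fit, 81 with pan-epithelial scaling, 486 and 198 without the 4 and the 8 libraries, and 171 to 779 as each mouse was left out. Pan-epithelial scaling gave 2090 genes for the difference between the days (3647 before), 16141 in control mice (7623) and 13257 in knockout mice (8159), and without the 8 libraries the count in control mice was 4871.

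No clear pairing of the mice by replicate number was seen. Same-numbered mice correlated in their deviations at -0.36 to 0.43 at 3 days and -0.24 to 0.42 at 7 days. The value was over 0.1 in 2 of 7 and 2 of 6 pairs, and 2 and 2 samples correlated best with their own number. These values cannot exclude pairs of littermates. With the replicate number as a block, 0 of the 10 genes passed at 3 days, 5 at 7 days, 3 for the difference between days, 3 in control mice and 4 in knockout mice, and 99 genes of all passed at 3 days. The low counts of Neurog3 limit what can be said of its size at 7 days.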
